A study of Mus musculus with 235 samples.

Results

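The liver response to isoniazid was examined in NON/LtJ, 1 of 31 inbred mouse strains profiled in the same study, in 7 of the 235 arrays of the series. The members were chosen by their titles, which name the strain, the treatment and the animal. Vehicle animals contributed 4 arrays and isoniazid animals 3, with 1 array per animal. All mice were female and 8 to 10 weeks old at the start. They received sterile water as vehicle or isoniazid at 100 mg/kg by gavage, 1 dose on each of 3 days, and the left liver lobe was taken 24 h after the last dose. Of the 4 NON/LtJ mice planned for isoniazid, 1 died before the end of the study and was not measured, so the treated group holds only survivors. The submitters coded the strain as one without isoniazid-induced steatosis, in which fat builds up in hepatocytes. The other 30 strains, with 228 arrays, served for comparison, and 13 of them were coded as having steatosis.

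Isoniazid is an antibiotic used against tuberculosis. The liver clears it mainly by N-acetylation, hydrolysis and oxidation of its products, and some patients develop liver injury. The drug and its hydrazine products react with pyridoxal phosphate, the active form of vitamin B6, which is the cofactor of aminotransferases, of the first enzyme of heme synthesis and of several enzymes of tryptophan and sulfur amino acid breakdown. The liver is also the organ that packs fat into lipoproteins or stores it in lipid droplets, so genes of both processes were followed.

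The values are log2 expression levels per gene, and a difference of 1 is a 2-fold change. Array medians of the 7 arrays lay between 3.99 and 4.07, and Pearson r across genes was 0.987 to 0.993 for pairs of arrays of the same group and 0.985 to 0.990 for pairs from different groups. All 7 arrays correlated best with the other arrays of their own strain. All 9 measured hepatocyte markers lay in the top 10% of gene levels, whereas 0 of 6 bile duct markers and 0 of 9 pancreas acinar markers did. The arrays were scanned on 10 dates, and none of these held both a vehicle and an isoniazid animal of NON/LtJ. Scan date and treatment therefore cannot be compared within a date in this strain. The level of the 3' Gapdh control probe set was 12.35, 12.00, 12.43 and 12.12 in vehicle animals 1 to 4 and 12.78, 12.67 and 12.57 in isoniazid animals 1 to 3, with no overlap. The 3' minus 5' difference of the actin control ran from 1.31 to 1.48 in vehicle animals and from 1.34 to 1.57 in isoniazid animals. The labels name the animals as separate samples.

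The first comparison asked which genes differed between isoniazid and vehicle livers of NON/LtJ. In a limma fit of all 235 arrays, 9 of 18146 genes passed at an adjusted p under 0.05, which is 0.0496%. Of these, 4 were higher under isoniazid (0.0220%) and 5 were lower (0.0276%). The genes that rose were Apoc2, Them7, Kmo and Pxt1, and those that fell were Serpina4-ps1, Pcp4l1, Ptger3, Ctse and Nuak2. Without adjustment 1009 genes had a p under 0.05. The 7 arrays did not overlap between groups for 1691 genes (9.32%), with isoniazid higher for 871 (4.80%) and lower for 820 (4.52%). A change of at least 1.5-fold was measured for 281 genes (1.55%). In a fit of the 7 arrays alone, 0 genes passed (smallest adjusted p = 0.114 by limma), while 1547 had an unadjusted p under 0.05. With scan date as a term the count was 23, with 7 higher and 16 lower, and without 21 arrays of narrow spread, none of them from NON/LtJ, it was 50. Leaving out isoniazid animal 1 left 2 genes, and leaving out vehicle animal 1 or vehicle animal 4 left 5 genes each.

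**Figure D1:**
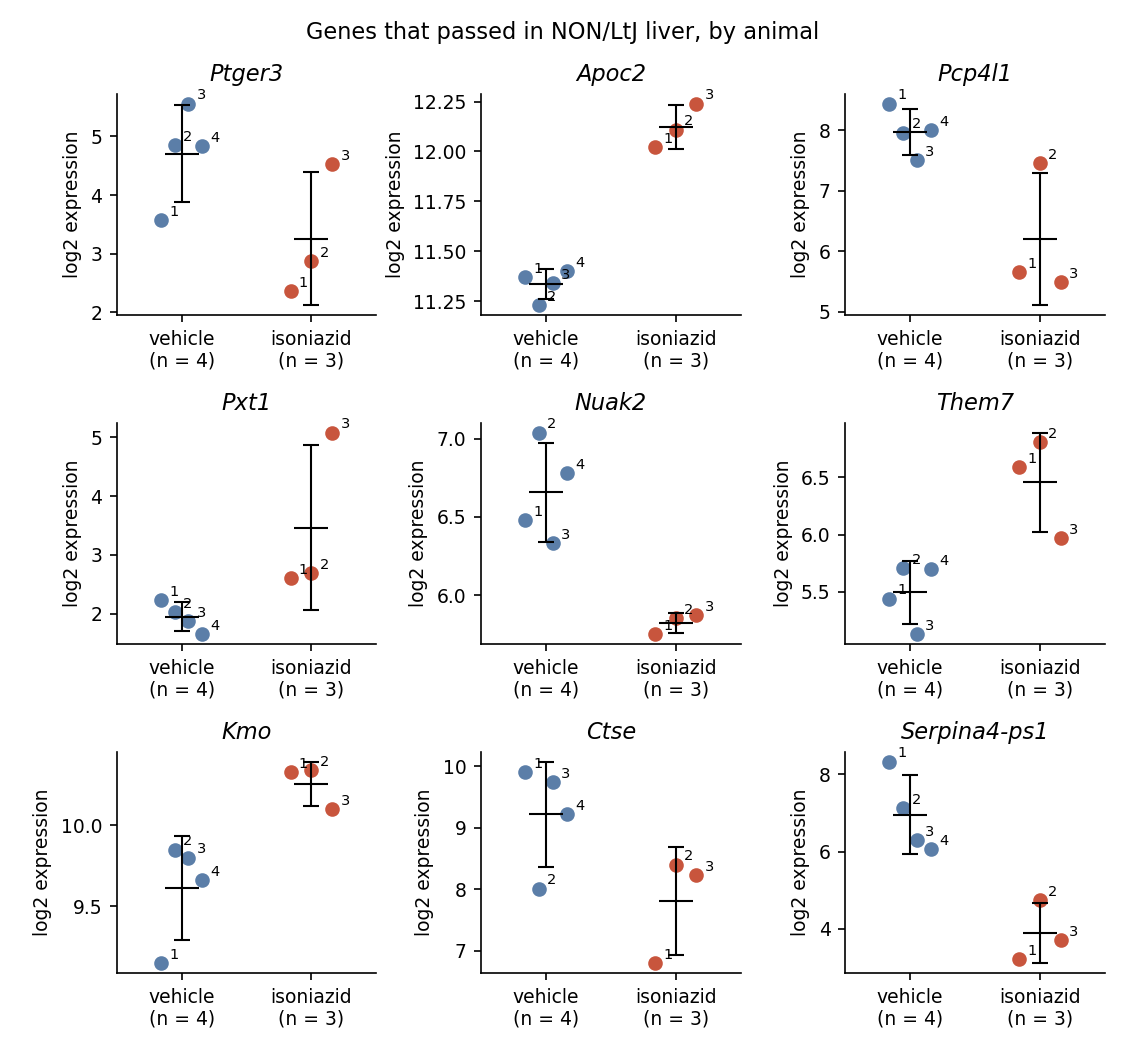
Log2 expression of the 9 genes that passed in NON/LtJ, with 1 point per animal, numbered by animal, and the mean and SD of each group as the bar (vehicle in blue, n = 4; isoniazid in red, n = 3). The axes differ between panels and do not start at 0. The groups overlap for Ptger3 and Ctse, and the isoniazid mean of Pxt1 rests on animal 3, at 5.08.

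Apoc2, the apolipoprotein that activates lipoprotein lipase, was the most even of these changes. Its level was 11.37, 11.23, 11.34 and 11.40 in vehicle animals 1 to 4 and 12.02, 12.11 and 12.24 in isoniazid animals 1 to 3. All treated animals were above all vehicle animals, and the SD within a group was 0.074 and 0.11. Apoc2 rose by 0.79 (SE 0.14), or 1.73-fold (adjusted p = 0.000698 by limma). It was the only one of the 9 genes that passed with each of the 7 animals left out in turn, with changes of 0.73 to 0.84 and adjusted p-values of at most 0.0278.

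Apoa4, another apolipoprotein of triglyceride-rich particles, came close to the threshold. Its level was 12.52, 11.63, 11.94 and 11.46 in vehicle animals and 12.95, 12.96 and 13.28 in isoniazid animals, without overlap. The change was 1.18 (SE 0.28, adjusted p = 0.053 by limma). It passed in 5 of 17 other settings. Of 14 measured genes of lipoproteins, 1 passed, namely Apoc2, where 0.0496% of all genes did. In this list 3 genes were separated upward and 1 downward, where 4.80% and 4.52% of all genes were. The list median was 0.04, beside 0.01 over all genes tested. Apob, the structural protein of very low density lipoprotein, had a change of -0.04 and Mttp, which loads it with lipid, one of 0.06; this pair was chosen after the values were seen.

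Kmo, the kynurenine hydroxylase of tryptophan breakdown, rose by 0.64 (SE 0.14, 1.56-fold, adjusted p = 0.0178 by limma). Its level was 9.15, 9.85, 9.80 and 9.66 in vehicle animals and 10.33, 10.34 and 10.10 in isoniazid animals. There was no overlap, and vehicle animal 1 was the lowest. The vehicle mean of 9.61 was the second lowest of the 31 strains, whose other 30 averaged 10.42, so treated NON/LtJ livers, with a mean of 10.25, came close to the untreated level elsewhere. The call was lost without vehicle animal 1 or 4 or isoniazid animal 1 or 2, where the change ran from 0.49 to 0.65 and the adjusted p reached 0.314, and also with scan date as a term (adjusted p = 0.0912) or with arrays centred on their medians (adjusted p = 0.0892).

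Kynu, the vitamin B6 enzyme that acts next in the kynurenine pathway, did not pass. Its level was 9.23, 9.46, 8.80 and 8.87 in vehicle animals and 10.20, 9.59 and 9.63 in isoniazid animals, without overlap. The change was 0.72 (SE 0.18, adjusted p = 0.0678 by limma), and it passed in 3 of 17 other settings.

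Them7, a gene of the thioesterase superfamily, rose by 0.96 (SE 0.20, 1.95-fold, adjusted p = 0.00959 by limma). The vehicle animals had 5.44, 5.71, 5.13 and 5.70, and the isoniazid animals had 6.59, 6.81 and 5.97. No values overlapped, and isoniazid animal 3 was the lowest of the treated. The strain had a low starting level, with a vehicle mean of 5.49 against 7.89 over the other strains, the fourth lowest of 31. Without vehicle animal 1 or 3 or isoniazid animal 1 or 2 the call was lost, with changes of 0.79 to 0.95 and an adjusted p of up to 0.308.

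Serpina4-ps1, a pseudogene of the serpin family, had the largest change of the 9. Its level was 8.33, 7.13, 6.30 and 6.07 in vehicle animals and 3.22, 4.75 and 3.72 in isoniazid animals. All treated animals were below all vehicle animals, in which the level spread over more than 2 log2 units. It fell by 3.06 on the log2 scale (SE 0.67, adjusted p = 0.0194 by limma), which is 8.34-fold. Its 3 probe sets gave -3.06, -2.72 and -1.73. Serpin genes lie in families of similar sequence, and signal from related transcripts was not tested. Over all 7 omissions of 1 animal the change ran from -3.49 to -2.60, and the call was lost without vehicle animal 1 or 2 or isoniazid animal 1 or 3 (highest adjusted p 0.375).

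Pcp4l1, a small gene related to the calmodulin-binding protein PCP4, fell by 1.77 on the log2 scale (SE 0.36, 3.42-fold, adjusted p = 0.00927 by limma). Levels were 8.44, 7.96, 7.51 and 8.00 in vehicle animals and 5.66, 7.46 and 5.49 in isoniazid animals. The groups did not overlap, although isoniazid animal 2 lay within 0.1 of the lowest vehicle animal. The SD was 0.38 in vehicle and 1.09 in isoniazid animals, while the SE is pooled over all groups. The call was lost without vehicle animal 1 or isoniazid animal 1 or 3, with changes of -1.62 to -1.42 and an adjusted p of up to 0.322.

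Nuak2, a kinase of the AMPK-related family, fell by 0.83 on the log2 scale (SE 0.17, 1.78-fold, adjusted p = 0.00959 by limma). It was at 6.48, 7.04, 6.33 and 6.78 in vehicle animals and at 5.75, 5.85 and 5.87 in isoniazid animals. The treated animals lay close together and below every vehicle animal. The call was lost without vehicle animal 2 or 4 or any 1 of the 3 isoniazid animals, with changes of -0.85 to -0.70 and an adjusted p of up to 0.236.

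Ctse, which encodes the aspartic protease cathepsin E, fell by 1.41 on the log2 scale (SE 0.31, adjusted p = 0.0178 by limma), but its groups overlapped, so it lies outside the rule for named genes and is given here because it was among the 9. The vehicle animals had 9.90, 8.01, 9.74 and 9.22, and the isoniazid animals had 6.80, 8.40 and 8.23. Vehicle animal 2 was below 2 of the 3 treated animals. A second probe set changed by 0.02, and the call was lost with the mean of both. It was also lost without vehicle animal 1, 3 or 4 or isoniazid animal 1, with changes of -1.41 to -0.90 and an adjusted p of up to 0.853.

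The second comparison asked whether NON/LtJ responded in another way than the other 30 strains. The difference between the NON/LtJ effect and their mean effect was tested in the same fit, and 2 of 18146 genes passed (0.0110%), Ptger3 and Pxt1. Without adjustment 521 genes had a p under 0.05. With the strain as the replicate 0 genes passed by limma (smallest adjusted p = 0.509), and 364 had an unadjusted p under 0.05. The count was 1 with scan date as a term, 1 when probe sets of a gene were averaged, 1 against the 22 strains without a lost animal, and 0 when dim genes were left out, because both genes lay below that limit. Without vehicle animal 3 it was 0, without vehicle animal 2 it was 4, and without vehicle animal 4 or any 1 of the isoniazid animals it was 1.

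Ptger3 encodes a receptor for prostaglandin E2. Its level was 3.58, 4.85, 5.56 and 4.84 in vehicle animals and 2.36, 2.88 and 4.53 in isoniazid animals. Isoniazid animal 3 was above vehicle animal 1, so the groups overlapped. Ptger3 fell by 1.45 on the log2 scale (SE 0.25, 2.73-fold, adjusted p = 0.000447 by limma). That SE is pooled over all groups, while the SD was 0.82 in vehicle and 1.14 in isoniazid animals of NON/LtJ. In fits of the 7 arrays alone Ptger3 did not pass (adjusted p up to 0.503 by limma). Its change was the lowest of the 31 strains, whose other 30 had a mean of -0.05. The NON/LtJ effect was lower than that mean by 1.40 (difference -1.40, SE 0.25, adjusted p = 0.00188 by limma).

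The other strains differed in their starting level of Ptger3, and most lay near the bottom of the scale, where little fall can be measured. The rank of the NON/LtJ change and its difference from the other strains are limited by this. The NON/LtJ vehicle mean of 4.71 was the third highest, and the mean of the other strains was 2.57. The strains above it were PWK/PhJ, with a vehicle mean of 7.62 and a change of -1.05, and CE/J, with 5.45 and -0.31. Next below NON/LtJ were MA/MyJ, with 3.54 and -0.92, and PL/J, with 3.39 and 0.88. A second probe set of Ptger3, with a vehicle mean of 2.54, changed by 0.10, and with the mean of both the difference from the other strains was -0.66 (adjusted p = 0.113). Without isoniazid animal 1 the gene passed neither comparison. Without vehicle animal 3 or isoniazid animal 2 it lost the comparison with the other strains. Over all 7 such omissions the Ptger3 change in NON/LtJ ran from -2.09 to -1.0.

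Pxt1 is known as a gene of the testis and encodes a peroxisomal protein. Its level was 2.23, 2.03, 1.87 and 1.65 in vehicle animals and 2.61, 2.69 and 5.08 in isoniazid animals. The groups did not overlap, but isoniazid animals 1 and 2 lay just above the highest vehicle animal and animal 3 stood far above. The fitted rise was 1.51 (SE 0.31, adjusted p = 0.00927 by limma), the highest of the 31 strains. PWK/PhJ came next, with a rise of 1.17 over 4 isoniazid animals. The difference from the mean of the other strains was 1.52 (SE 0.31, adjusted p = 0.0224 by limma). Without isoniazid animal 3 the change was 0.71 and the difference 0.72, and neither passed. Without vehicle animal 4 neither passed, and without vehicle animal 3 the difference did not pass. With scan date as a term the difference was 1.41 (adjusted p = 0.215). The levels of the other 6 animals were below the medians of their arrays.

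The next smallest p-values in this comparison did not pass. Tle1, a transcriptional corepressor, had 7.53, 8.13, 6.95 and 7.17 in vehicle animals and 8.37, 8.46 and 8.24 in isoniazid animals. These groups did not overlap, and the change of 0.91 was the highest of 31 strains, but the adjusted p of the difference was 0.405 by limma and a second probe set changed by 0.14. Nuak2 differed by -0.64 and Ltc4s, the leukotriene C4 synthase, by 0.46, each with an adjusted p of 1.00.

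**Figure D2:**
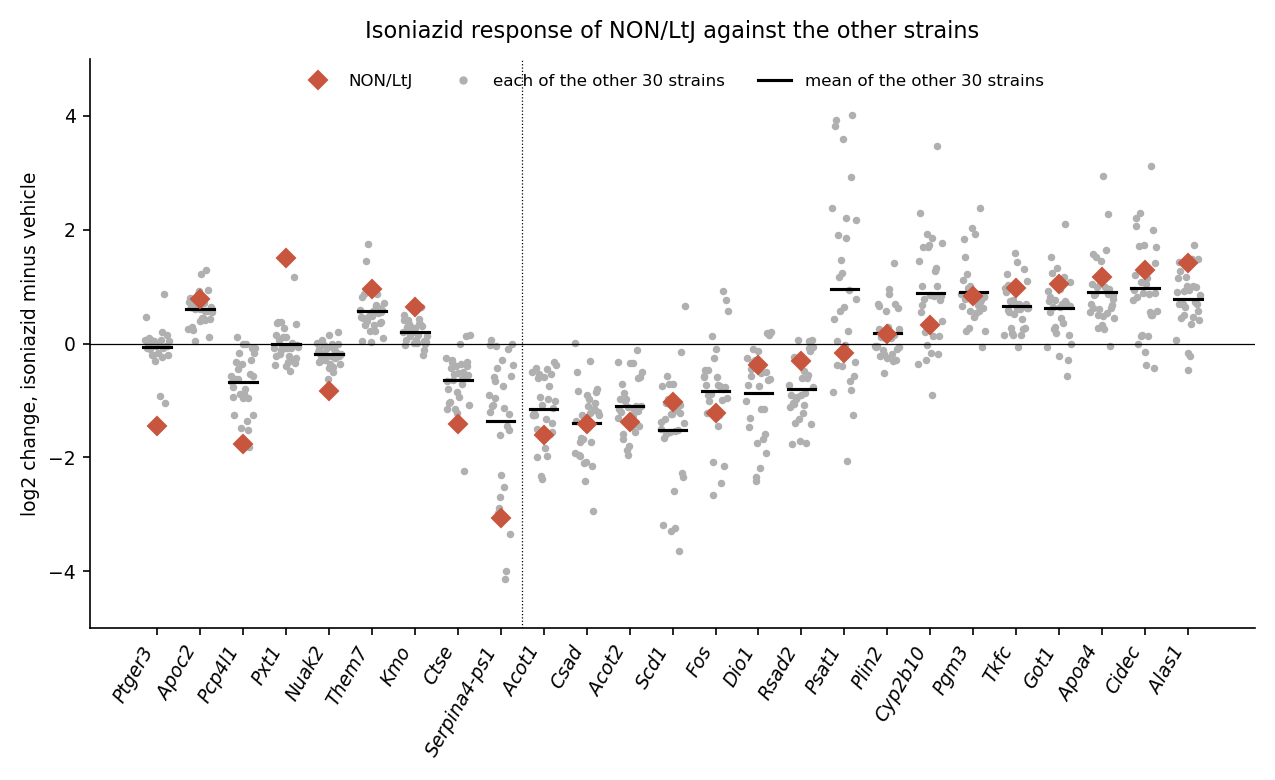
Log2 change (isoniazid minus vehicle) in NON/LtJ (red diamonds), in each of the other 30 strains (grey points) and their mean (black bars), for the 9 genes that passed in NON/LtJ (left of the dotted line) and 16 genes of the fixed set. Ptger3 and Nuak2 have their lowest value in NON/LtJ and Pxt1 its highest. The fixed genes lie within the range of the other strains.

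Most of the 9 genes were not particular to the strain. Of these genes, 8 changed in the same direction as the mean of the other strains, and 7 passed in those strains as well in that direction, where the background was 3480 of 18146 genes (19.2%). All 9 changes exceeded the other strains' mean in size, which is a feature of genes chosen by passing in NON/LtJ. Apoc2 and Them7 were higher under isoniazid in all 30 other strains, by means of 0.60 and 0.57. Pcp4l1 was lower in 28 of 30 (mean -0.67) and Ctse in 28 of 30 (mean -0.64). Serpina4-ps1 was lower in 29 of 30 (mean -1.36), and 3 strains had a lower change than NON/LtJ, namely NOD/LtJ (-4.14), NOR/LtJ (-3.99) and SEA/GnJ (-3.35), each with a vehicle level above that of NON/LtJ. Its vehicle mean was 6.96 in NON/LtJ and 4.53 over the other strains. The lowest strain had 2.72, where little fall can be measured, which limits the mean of -1.36. Nuak2 was lower in 26 of 30 (mean -0.19). Kmo was higher in 26 of 30 (mean 0.20), and NON/LtJ had the second highest change.

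The third comparison asked whether the common response was present in this strain. Over the other 30 strains, 3480 genes passed, 1784 higher (9.83%) and 1696 lower (9.35%). In NON/LtJ, 2944 of them (84.6%) changed in the same direction. Over the 14666 genes that did not pass there, 8337 (56.8%) shared the sign of the other strains' mean. The 7 arrays did not overlap in the same direction for 735 of the 3480 genes (21.1%) and in the opposite direction for 12 (0.345%), beside the 9.32% over all genes for either direction. Among the 56 genes that also changed at least 1.5-fold in the other strains, 52 moved the same way and 29 were separated that way. Their mean signed change was 0.779 in NON/LtJ and 0.776 over the other strains, in which the genes were chosen for passing and for size.

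**Figure D3:**
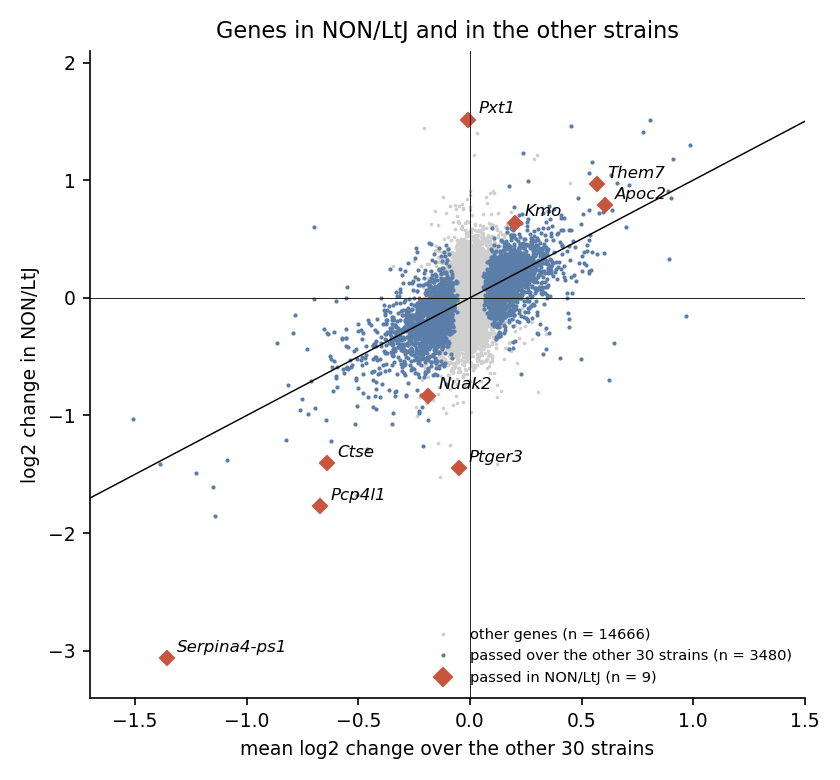
Log2 change in NON/LtJ against the mean log2 change over the other 30 strains, with 1 point per gene (blue, the 3480 genes that passed over the other strains; grey, the other 14666; red diamonds, the 9 that passed in NON/LtJ). The line marks equal change. Most blue points lie in the quadrants of equal sign, and Ptger3 and Pxt1 lie far from the line at a mean near 0 in the other strains.

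A score was formed for each animal from the 3480 genes, as the mean level of the genes that rose in the other strains and the sign-turned level of those that fell. It was 0.291, 0.251, 0.291 and 0.264 in vehicle animals 1 to 4 and 0.478, 0.453 and 0.461 in isoniazid animals 1 to 3. All treated animals lay above all vehicle animals by a wide gap relative to the spread, with means of 0.464 ± 0.0127 (SD, n = 3) and 0.274 ± 0.0201 (SD, n = 4). The difference was 0.189, against 0.196 over the other 30 strains. Those strains chose the genes, which favours large values there, so the 0.189 and the 0.196 are not like with like. An exact two-sided permutation test of the animals gave p = 0.0571, which is the smallest value that 3 against 4 animals allow, with 35 possible splits. NON/LtJ arrays took no part in choosing these genes.

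When each strain was scored with genes chosen from the remaining 30, NON/LtJ ranked 11th of 31. The 17 other strains without steatosis ran from 0.0613 to 0.237 with a median of 0.156, and the 13 strains with steatosis from 0.0896 to 0.367 with a median of 0.176. The 8 other strains with a lost animal had a median of 0.129. By the share of response genes with the common direction NON/LtJ ranked 5th. By the number of genes that passed within the strain it ranked 27th of 31, since its 9 calls stand beside counts of 0 in A/J and PL/J and 2747 in PWK/PhJ. The 4 other strains with 3 isoniazid animals had 0 to 538 calls, with a median of 74.5.

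**Figure D4:**
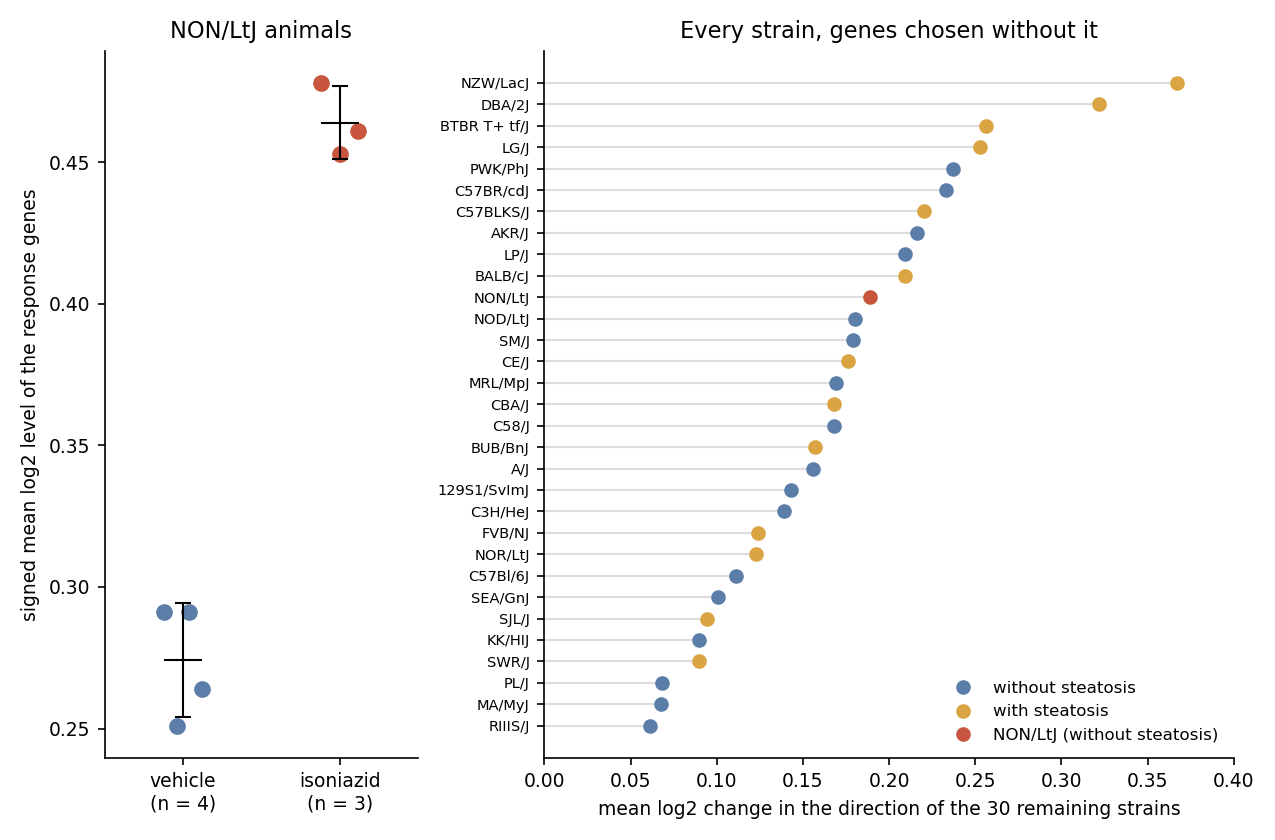
Left, signed mean log2 level of the 3480 response genes in each NON/LtJ animal, with the group mean and SD as the bar (vehicle, n = 4; isoniazid, n = 3). Right, mean log2 change of the response genes in the common direction for every strain, with genes chosen from the remaining 30 strains and colours for the steatosis code. The treated NON/LtJ animals sit between 0.453 and 0.478, above vehicle animals at 0.251 to 0.291, and the strain is 11th of 31.

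A fixed set of 21 genes of lipid, drug, heme and amino acid metabolism was followed in every animal. In NON/LtJ, 13 of the 21 were separated between groups, where 9.32% of all genes were, and 20 had the sign of the other strains' mean. Apoc2 alone passed, where 0.0496% of all genes did. No gene of this set differed from the other strains at an adjusted p under 0.05. This set was chosen with earlier results of the series known, so its direction is no independent evidence.

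Alas1, the first enzyme of heme synthesis and a vitamin B6 enzyme, was 10.00, 9.95, 10.72 and 10.55 in vehicle animals and 11.56, 11.65 and 11.93 in isoniazid animals. All treated animals were higher, and the change was 1.41 (SE 0.34, adjusted p = 0.0678 by limma) against 0.78 in the other strains. It passed in 3 of 17 other settings. A second probe set of Alas1 changed by 1.27. The other 12 measured genes of heme synthesis and breakdown had changes of -0.43 to 0.13, and 0 of the 13 passed.

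Acot1 and Acot2 encode acyl-CoA thioesterases, which release fatty acids from coenzyme A and are targets of PPAR alpha. Acot1 was 10.06, 8.29, 9.63 and 8.98 in vehicle animals and 7.30, 7.43 and 8.18 in isoniazid animals. The groups did not overlap, and the change was -1.60 (SE 0.43, adjusted p = 0.143 by limma). Acot2 had -1.38 (SE 0.41, adjusted p = 0.246), again without overlap, with -0.34 at a second probe set. Vnn1, a pantetheinase and another PPAR alpha target, had -1.21 (adjusted p = 0.313). The list of 26 PPAR alpha targets and oxidation genes as a whole had a median of -0.03, the same as over the other strains, and 0 of 26 passed.

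Csad, an enzyme of taurine synthesis that uses vitamin B6, was 9.91, 8.33, 8.57 and 8.39 in vehicle animals and 6.94, 7.67 and 7.55 in isoniazid animals. The groups did not overlap, and vehicle animal 1 stood above all others. The change of -1.41 (SE 0.44, adjusted p = 0.309 by limma) was close to the mean of -1.39 over the other strains. Scd1, a desaturase that puts a double bond into saturated fatty acids, was 11.99, 12.35, 13.20 and 12.86 in vehicle animals and 11.46, 11.41 and 11.83 in isoniazid animals. Its change was -1.03 (SE 0.49, adjusted p = 0.859), without overlap, against -1.51 elsewhere.

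Beside Apoa4 and Alas1, the genes of the set with all treated animals above all vehicle animals, but without a pass, were Cidec, Got1, Tkfc, Pgm3, Fasn and Nat2. Cidec, a protein of lipid droplets, was 4.78, 3.90, 4.71 and 4.59 in vehicle animals and 5.89, 5.45 and 6.06 in isoniazid animals, a change of 1.30 (SE 0.40, adjusted p = 0.28 by limma). All treated animals were higher. The other strains averaged 0.98, and the change in NON/LtJ was the 10th highest of 31. Changes of Cidec ran from -0.43 to 2.30 in the other strains without steatosis and from -0.38 to 3.13 in strains with it. Got1, the cytosolic aspartate aminotransferase, had a change of 1.05 (adjusted p = 0.631), with vehicle levels of 10.81 to 11.18 and isoniazid levels of 11.98 to 12.31. Tkfc, which acts on glyceraldehyde from fructose, had 0.97 (adjusted p = 0.269), and Pgm3, of hexosamine synthesis, had 0.84 (adjusted p = 0.412), both without overlap. Fasn, the fatty acid synthase, had 0.43 and began from the lowest vehicle mean of the 31 strains, 6.52 against 7.32 over the others. Nat2, an arylamine N-acetyltransferase, had 0.37 (adjusted p = 0.853), without overlap.

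For the remaining fixed genes the animals overlapped. Cyp2b10, a cytochrome P450 induced through the receptor CAR, had 10.60, 8.83, 10.60 and 10.20 in vehicle animals and 10.05, 10.12 and 11.00 in isoniazid animals. Its change of 0.33 was positive through vehicle animal 2 and was -0.08 without it, while the other strains averaged 0.89. The vehicle mean of 10.06 was the fifth highest of the 31 strains, against 8.80 over the others.

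Dio1, a thyroid hormone deiodinase, changed by -0.38 against -0.87 elsewhere, from the fourth highest vehicle mean. Fos, an early response gene, had -1.21, with vehicle animals between 5.22 and 7.30. Rsad2, an interferon-induced gene, had -0.30 against -0.79, and 0.03 without isoniazid animal 2. Psat1, an enzyme of serine synthesis, had 3.92, 4.81, 2.94 and 2.53 in vehicle animals and 2.48, 2.01 and 5.68 in isoniazid animals. Isoniazid animal 3 was the highest of all 7 animals and animal 2 the lowest, and the change of -0.16 turned to 0.26 without vehicle animal 2, to 0.30 and 0.53 without isoniazid animals 1 and 2, and to 0.09 with the mean of its probe sets. Plin2, the main coat protein of lipid droplets, had 0.17, and Cyp2e1, which oxidises isoniazid products, had -0.12 (adjusted p = 0.895).

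Fgf21, a hormone released by the stressed or fasted liver, showed how 1 vehicle animal differed from its group. It was 7.23, 10.32, 7.93 and 7.45 in vehicle animals and 7.70, 8.29 and 8.68 in isoniazid animals. Vehicle animal 2 was the highest of all 7 animals, and the change of -0.01 was 0.69 without it and 0.26 without isoniazid animal 1. The same animal was the highest for Gadd45a, a DNA damage and stress gene, at 7.76, where the other vehicle animals had 4.75 to 5.58 and isoniazid animals 4.21 to 4.54. The change of Gadd45a was -1.53 (adjusted p = 0.624 by limma), the lowest of 31 strains, and it was -0.91 without vehicle animal 2. The mean of 16 macrophage markers was also highest in vehicle animal 2, at 8.32.

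Gene lists were then described by counts and medians, beside the share of all genes that were separated between groups (9.32%, with 4.80% upward and 4.52% downward). Genes of oxidative phosphorylation and of the proteasome mostly had small positive changes. Of 30 oxidative phosphorylation genes, 28 were above 0, as were 52.8% of all genes, and 15 were separated upward, where 4.80% of all genes were. Their median was 0.18 (other strains 0.11), and 0 of the 30 passed. Cox6b1, a subunit of cytochrome oxidase, came closest, at 11.99, 11.85, 12.14 and 12.11 in vehicle animals and 12.47, 12.46 and 12.24 in isoniazid animals (change 0.37, adjusted p = 0.0678 by limma), without overlap. Atp5o, of ATP synthase, had 0.28 (adjusted p = 0.269). Of 22 proteasome genes, 21 were above 0, 13 were separated upward and 0 passed, with a median of 0.23 (other strains 0.18). Psmc3, a base ATPase, had 0.38 (adjusted p = 0.375), Psma1 0.37 (adjusted p = 0.53) and Psmb6 0.36 (adjusted p = 0.412). Psma1 and Psmb6 encode core subunits.

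Enzymes of vitamin B6 and of nitrogen disposal were next. Of 23 vitamin B6 genes, 9 were separated upward and 1 downward, where 4.80% and 4.52% of all genes were, and 0 passed. Alas1, Got1, Kynu and Oat led upward and Csad downward. Oat, ornithine aminotransferase, was 12.05, 12.25, 11.97 and 11.88 in vehicle animals and 12.57, 12.56 and 12.51 in isoniazid animals, without overlap (change 0.51, adjusted p = 0.338 by limma). Of 18 urea cycle and amino acid breakdown genes, 7 were separated upward and 2 downward, beside the same shares of all genes, and 0 passed. Asl, argininosuccinate lyase, was 11.81, 12.00, 12.08 and 12.08 in vehicle animals and 12.82, 12.67 and 12.71 in isoniazid animals. Its treated animals lay close together and above every vehicle animal (change 0.74, adjusted p = 0.252). Glud1, glutamate dehydrogenase, had -0.29 (adjusted p = 0.43). The lists share Got1, Oat and Tat.

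Of 12 genes of gluconeogenesis and fasting, 10 were above 0, 3 were separated upward (4.80% of all genes were) and 0 passed. The median was 0.33 against 0.10 over the other strains, the third highest of 31. Fbp1, fructose bisphosphatase, was 12.91, 12.97, 12.96 and 12.91 in vehicle animals and 13.39, 13.40 and 13.13 in isoniazid animals, without overlap (change 0.37, adjusted p = 0.137 by limma). Foxo1, a transcription factor of the fasting state, had 7.30, 7.93, 7.79 and 7.86 in vehicle animals and 8.00, 8.24 and 8.20 in isoniazid animals. Its change of 0.43 (adjusted p = 0.88) was opposite to the mean of -0.24 over the other strains, and the difference of 0.67 had an unadjusted p of 0.00173 and an adjusted p of 1.00 by limma.

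In the list of lipid droplets and triglyceride turnover, 6 of 25 genes were separated upward, 2 downward, and 0 passed. Of all genes, 4.80% were separated upward and 4.52% downward. Lpin1 encodes lipin, which makes diacylglycerol and also acts as a transcriptional coactivator. It was 6.63, 7.31, 7.91 and 7.31 in vehicle animals and 8.26, 8.66 and 9.16 in isoniazid animals. The groups did not overlap, and the change of 1.40 (SE 0.45, adjusted p = 0.355 by limma) was the highest of 31 strains, whose other members averaged 0.03. Its difference from them had an unadjusted p of 0.00304 and an adjusted p of 1.00. Gpat3, an acyltransferase at the start of triglyceride synthesis, had -0.82 (adjusted p = 0.438), with vehicle levels of 7.51 to 7.87 and isoniazid levels of 6.61 to 7.03. In fatty acid synthesis 3 of 20 genes were separated each way, with Elovl6, an elongase, at 0.72 (adjusted p = 0.642).

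Cholesterol synthesis was the list furthest from the other strains. Of 18 measured genes, 2 were above 0, 3 were separated downward (4.52% of all genes were) and 0 passed. The median was -0.32 in NON/LtJ and 0.25 over the other strains. The NON/LtJ median was the second lowest of the 31 strains, of which 20 had a median above 0. Across 17 alternative settings it ran from -0.41 to -0.21. By the rule for named genes Fdft1, squalene synthase, had -0.60 (adjusted p = 0.922), Tm7sf2, a sterol reductase, -0.43 (adjusted p = 0.932) and Pmvk, phosphomevalonate kinase, -0.42 (adjusted p = 0.899). Cyp51, lanosterol demethylase, chosen here after its values were seen, was 5.91, 6.50, 5.79 and 6.02 in vehicle animals and 5.38, 5.14 and 5.24 in isoniazid animals. These groups did not overlap. Its change was -0.80 against 0.30 over the other strains, a difference of -1.11 with an unadjusted p of 0.024 and no call after adjustment. Idi1 and Msmo1, chosen in the same way, had -0.70 and -0.38 against 0.62 and 0.64, and their animals overlapped.

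Bile acid genes had a median of -0.06, with 5 of 23 separated downward (4.52% of all genes were), 0 upward (4.80%) and 0 passing. Cyp2c70, which makes muricholic acids, was 11.04, 11.87, 11.41 and 11.54 in vehicle animals and 10.81, 10.46 and 10.02 in isoniazid animals, without overlap (change -1.04, adjusted p = 0.11 by limma). It passed in 2 of 17 other settings. Slco1b2, a transporter of bile acids and drugs into hepatocytes, had -0.57 (adjusted p = 0.52). Of 12 genes of isoniazid metabolism 0 passed. Nat1, the second acetyltransferase, had 0.54 (adjusted p = 0.679) and Gsta3, a glutathione transferase, -0.45 (adjusted p = 0.884), both without overlap.

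Heat shock genes had a median of 0.30 against 0.00 over the other strains, with 11 of 12 above 0, 1 separated and 0 passing. Hspa1b, an inducible chaperone, was 7.94, 8.56, 7.72 and 7.87 in vehicle animals and 9.39, 8.41 and 9.91 in isoniazid animals, a change of 1.21 (adjusted p = 0.791 by limma). Isoniazid animals 1 and 3 were high, and animal 2 overlapped with vehicle animal 2. By the unfolded protein response the endoplasmic reticulum raises its folding capacity. Of 20 genes of this response 15 were above 0, but 0 were separated (9.32% of all genes were) and 0 passed. Dnajb9, a chaperone of that response, had 0.53 (adjusted p = 0.497), with vehicle animal 2 above all other animals at 10.55. Without that animal Dnajb9 passed in both comparisons.

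Interferon-induced genes and early response genes lay lower. Of 24 interferon-induced genes 1 was above 0, 2 were separated downward (4.52% of all genes were) and 0 passed. Their median was -0.31 (other strains -0.29). Rtp4, a chaperone of receptors, had -0.77 (adjusted p = 0.717) and Iigp1, an immunity-related GTPase, -0.52 (adjusted p = 0.865), both without overlap, and Mx1, an antiviral GTPase, had -0.60 with overlap. Of 16 immediate early genes, 14 were below 0, 5 were separated downward and 0 passed, with a median of -0.40 (other strains -0.25). Jund, an AP-1 subunit, was 9.60, 9.59, 9.37 and 9.52 in vehicle animals and 8.94, 9.01 and 9.07 in isoniazid animals (change -0.51, adjusted p = 0.679 by limma). Klf2, a transcription factor of vessel walls, had -0.66 (adjusted p = 0.834) and Btg2, an antiproliferative gene, -0.93 (adjusted p = 0.899). These genes were separated between groups.

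Macrophage and endothelial markers lay lower beside these lists, while the medians of stellate cell, bile duct cell and T and NK cell markers were 0.01, 0.04 and 0.00. Of 16 macrophage markers 15 were below 0, whereas 52.8% of all genes were above 0. None of the 16 were separated (9.32% of all genes were) and 0 passed. Their median was -0.29, against -0.22 over the other strains, where 9 of the 16 passed as lower. Their mean level ran from 7.42 to 8.32 in vehicle animals and from 7.19 to 7.89 in isoniazid animals, with overlap, and Csf1r, the macrophage growth factor receptor, had -0.36. Of 14 endothelial markers 13 were below 0, 4 were separated downward (4.52% of all genes were) and 0 passed. Their median was -0.27, against -0.08 over the other strains, where 2 of the 14 passed as lower. Their mean level ran from 6.68 to 7.07 in vehicle animals and from 6.53 to 6.64 in isoniazid animals, without overlap. Kdr, a receptor of vascular endothelial growth factor, had -0.42 and Fcgr2b, an Fc receptor of sinusoidal endothelium, -0.60, both separated. In bulk tissue fewer cells of a type and less RNA per cell cannot be told apart, and the part of these cells in the lower interferon-induced and early response genes was not tested. No macrophage or endothelial marker passed in NON/LtJ by limma.

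**Figure D5:**
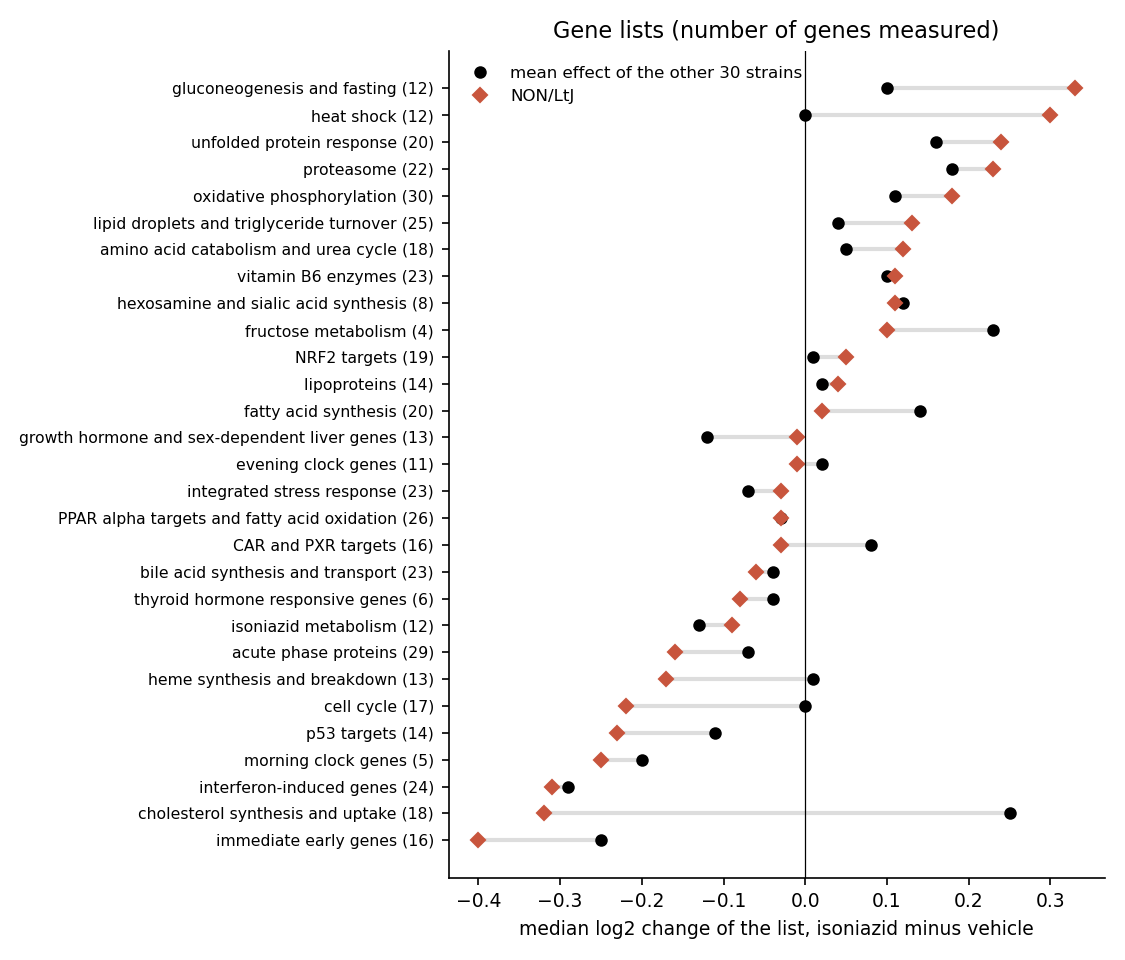
Median log2 change of each gene list in NON/LtJ (red diamonds) and of the mean effect over the other 30 strains (black points), with the number of genes measured in brackets. The list of cholesterol synthesis and uptake has the widest gap, -0.32 against 0.25.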

How the data were processed

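Total liver RNA was labelled with a 3' in vitro transcription kit and hybridised to Affymetrix mouse expression arrays, per the labels' protocols. The deposited values are log2 expression values of 44721 probe sets on 235 arrays, made by the authors with RMA; the submitters' processing notes name Affymetrix Power Tools, with no version in the sources used here. RMA corrects background, gives all arrays 1 distribution and combines probes in log2 units, which removes any shift shared by all genes and compresses low values. The number of arrays limits the precision. Strain variants under a probe can lower its signal in every animal of that strain.

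Probe sets were named from the supplied array annotation: 34717 had 1 symbol, 872 several and 9072 none, and 60 were controls. The probe set with the highest mean was used for each of 18146 genes. R 4.3.3 and limma 3.58.1 (lmFit, eBayes) fitted 62 strain and treatment groups, which share 1 estimate of the spread with 173 residual degrees of freedom. Contrasts were the NON/LtJ effect and its difference from the mean of the other 30 strain effects. P-values are two-sided and adjusted by the Benjamini-Hochberg method over 18146 genes. They rest on the spread between animals of the same group, pooled over all 62 groups, not on the 7 NON/LtJ animals alone. Over genes the pooled SD had a median of 0.248, beside 0.181 in the vehicle and 0.173 in the isoniazid arrays of NON/LtJ. Isoniazid SDs were larger for Ptger3 (1.14, SE 0.25), Pxt1 (1.40, SE 0.31), Pcp4l1 (1.09, SE 0.36) and Ctse (0.88, SE 0.31). The p-values of these genes understate that spread. The code was tested on simulated data. Separated means that no isoniazid array overlaps the vehicle arrays.

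The named genes were up to 12 highest and 12 lowest among genes that passed and were separated, up to 8 each way or the 5 smallest p-values against the other strains, a fixed set of 21 genes, and up to 3 members of each list with the largest t. Members, lists and the fixed set were chosen with earlier results of these data known. Alternatives were scan date or animal number as a term, median-centred arrays, averaged probe sets per gene, a filter on dim genes (40th percentile of mean level), trend and robust eBayes, a 1.5-fold limit, leaving out 21 arrays of narrow spread, other comparison strains, strain as replicate, the 7 arrays alone, and each array left out. No sequences are shown, since none of the values concern sequence.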

Additional observations from a re-analysis of the deposited data

Results flagged for a closer look

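Among 68 vehicle groups of named genes checked for a single distant animal, 1 stood out, where chance marks about 1 in 20. Csad was at 9.91 in vehicle animal 1, against 8.33 to 8.57 in the other vehicle animals.

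Ptger3 and Pxt1 differed between NON/LtJ and the other 30 strains, by -1.40 and 1.52 on the log2 scale. Both differences passed with animals as replicates and neither passed with strains as replicates (adjusted p = 0.81 and 0.509 by limma).

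Probe sets without a single gene symbol were outside the comparisons of genes. Of 9944 such probe sets 2 passed in a fit of all 44661 probe sets. Probe set 1427404_x_at changed by 0.60 (adjusted p = 0.0482 by limma), from 10.08 to 10.48 in vehicle animals to 10.72 to 10.99 in isoniazid animals. Probe set 1446364_at changed by 0.55 (adjusted p = 0.045), from 1.95 to 2.15 to 2.48 to 2.92, near the bottom of the scale.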

How the results depend on the processing

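The count of 9 genes in NON/LtJ became 23 with scan date as a term, 16 without dim genes, 15 with trend and robust settings, 50 without the narrow-spread arrays, and 0 in the 7 arrays alone, with or without the replicate block (849 and 1547 genes at an unadjusted p under 0.05 by limma). With 1 animal left out it ran from 2 to 13. The count of 2 against the other strains was 1 with scan date as a term, 1 with mean probe sets, 1 against strains without a lost animal, 0 without dim genes (244 at an unadjusted p under 0.05 by limma), 0 with strain as replicate, and 0 to 4 with 1 animal left out. The response score difference of 0.189 was 0.165 with mean probe sets, 0.17 without the narrow-spread arrays, 0.27 with 1111 genes chosen over the 17 other strains without steatosis, 0.779 with 56 genes of at least 1.5-fold change, and 0.182 to 0.195 with 1 animal left out. The causes were not tested. Animals share only a number: deviations of same-numbered animals had correlations of -0.069, -0.25 and -0.11. With the replicate block over all arrays 10 and 2 genes passed. Sign changes occurred for Fgf21 (0.01 with the replicate block, -0.34 to 0.69 with 1 animal left out), Psat1 (0.09 with mean probe sets, -1.30 to 0.53), Cyp2b10 (-0.08 to 0.51) and Rsad2 (-0.50 to 0.03). Low signal limits Pxt1 and Ptger3.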

Other observations

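Aqp4, a water channel gene, has 3 probe sets, and the one with the highest mean, used above, changed by 0.31. Another had 3.72, 3.73, 4.30 and 3.53 in vehicle animals and 5.38, 5.89 and 5.92 in isoniazid animals. These groups were far apart, and the change of 1.91 (SE 0.39) passed in a fit of all probe sets (adjusted p = 0.0179 by limma), while the other strains averaged 1.28 there. The third changed by 0.77, and the gene passed with the mean of its probe sets.

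Among the 12 genes separated in NON/LtJ against the direction of the other strains were Cish, an inhibitor of cytokine signalling (0.47 against -0.18), Ier5l (0.42 against -0.10) and Haus6, of the mitotic spindle (-0.44 against 0.18). None of the 12 passed in the test of the difference, with adjusted p-values of 1.00 by limma.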
